A study of Rattus norvegicus with 12 samples.

Results

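Arginine taken up by cells at a wound can, among other uses, be hydrolysed by arginase or oxidised by nitric oxide synthase. The 7 genes described here encode a transporter, these competing enzymes and steps next to them. They were Slc7a2, Arg1, Arg2, Odc1, Nos2, Nos3 and Ass1, chosen by name for arginine use by wound macrophages. A gene was read from probe sets that the platform annotation assigned to its symbol and to no other, and each of the 7 had 1 such probe set, so that they made up 7 of 14217 genes and 7 of the 31042 probe sets tested. The rats were female Sprague-Dawley animals in which the left femur was cut and held at a gap of 1.5 mm by an external fixator, and the hematoma in the gap was collected on day 3. The 4 groups were old rats with semi-rigid fixation (OSR), old rats with rigid fixation (OR), young rats with semi-rigid fixation (YSR) and young rats with rigid fixation (YR). Old rats were 52 weeks and young rats 12 weeks of age, and the fixator stood 15 mm from the bone in the semi-rigid and 7.5 mm in the rigid configuration. Each group had 3 arrays, each of RNA pooled from 3 animals, so that 9 animals stood behind a group but single animals could not be compared. The 4 groups shared the operation and the day, and no rat without an osteotomy was included.

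In rodent macrophages arginase 1 rises with the signals of tissue repair and turns arginine into urea and ornithine, the precursor of polyamines and, through glutamate semialdehyde, of proline for collagen. Inducible nitric oxide synthase rises with bacterial products and inflammatory cytokines and turns the same substrate into nitric oxide and citrulline. The ratio between both enzymes is a classical readout of macrophage state in rodents, and citrulline can be built back into arginine, so that the pathway forms a cycle. Total hematoma RNA was measured, in which fewer cells of a type and less RNA per cell cannot be told apart.

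Values are the deposited signal intensities on a linear scale, scaled so that all 12 arrays had the same trimmed mean, and differences are between group means of log2 signal, on which a difference of 1 is a 2-fold change. A difference was called where its p-value from limma, adjusted over all 31042 probe sets, was under 0.05, and with pools as replicates the p-values measure the spread between pools. Only 3 arrays per group limit the precision of every value. Among control probe sets, the log2 excess of Gapdh signal at the 3' over the 5' end, a sign of degraded RNA, reached 6.69 for YSR array 1 and 2.95 for OR array 1, lay at 1.02 to 1.59 in YR and at 0.33 to 0.49 in the remaining arrays. By rank correlation 9 of the 12 arrays were nearest to an array of another group. Of the cell type markers measured, those of macrophages (8 of 8 genes), endothelium (7 of 7), red cells (6 of 6), fibroblasts (6 of 6), skeletal muscle (7 of 8), neutrophils (4 of 6) and T cells (4 of 6) were as bright as the median probe set or brighter. Over the probe sets tested, the median of the mean log2 signal was 7.16, and Arg1, Odc1, Nos3 and Ass1 had means above it whereas Slc7a2, Arg2 and Nos2 lay below.

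**Figure D1:**
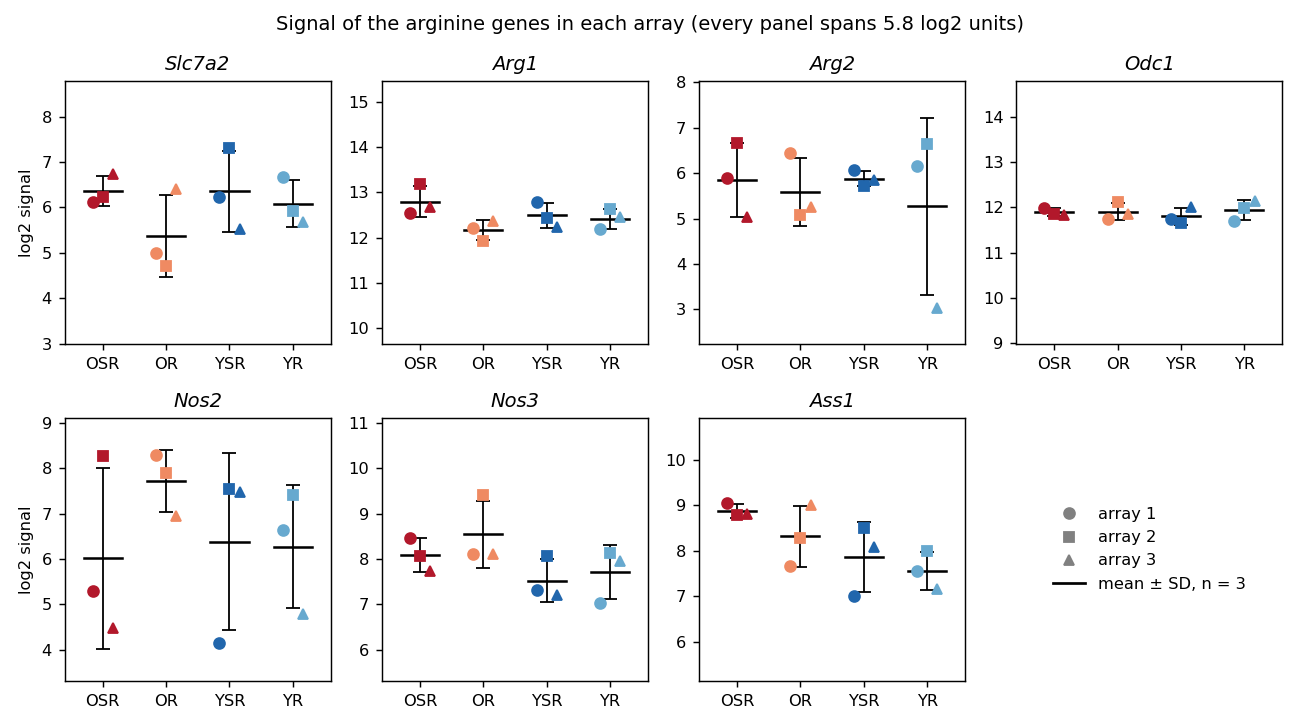
Log2 signal of each of the 7 genes (panels) in the 3 arrays (points) of OSR, OR, YSR and YR, with the group mean and SD (lines, n = 3); every y axis spans the same number of log2 units. Arg1 and Odc1 were bright with points close together, Nos2 and Arg2 scattered within groups, and all 3 OSR points of Ass1 lay above all 3 YSR and all 3 YR points.

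Of the 7 genes 0 passed the adjusted threshold with limma in any of the 9 comparisons, which were the 6 pairs of groups, age, fixation and their interaction. The same held with an unmoderated linear model and in every other of the 20 alternatives, with only the 4 brighter genes left where dim probe sets were removed. Few probe sets passed at all: the share was 0.00644% for old minus young, 0.00322% each for OSR minus YSR, OR minus YR and OSR minus YR, and 0% for OSR minus OR, YSR minus YR, OR minus YSR, semi-rigid minus rigid and the interaction. At an unadjusted p under 0.05, Ass1 and Nos3 were counted for old minus young (2 of 7 genes, against 8.59% of all probe sets) and Arg1 for semi-rigid minus rigid (1 of 7, against 5.73%), and 0 of 7 for the interaction (against 3.8%). In the pairs, Ass1 was counted for OSR minus YSR (background 4.36%) and for OSR minus YR (4.84%), Arg1 for OSR minus OR (5.26%) and Nos3 for OR minus YSR (9.89%), while 0 were counted for OR minus YR (8.34%) and YSR minus YR (4.37%). In each of these 4 pairs the gene counted was also the gene whose arrays did not overlap between the groups, and the shares of all probe sets without overlap were 8.98% for OSR minus YSR, 11.5% for OSR minus YR, 10.8% for OSR minus OR and 14.1% for OR minus YSR. With 7 genes, 1 gene in a pair is not far from these shares. No gene of the 7 was without overlap for OR minus YR (13.8%) or YSR minus YR (9.38%), nor between all old and all young arrays (0.399%) or all semi-rigid and all rigid arrays (0.254%).

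Slc7a2 encodes CAT2, a cationic amino acid transporter through which macrophages take up arginine (chromosome 16, 58115991 to 58174256, GRCr8). Its signals were 69.2, 75.2 and 107.5 in OSR, 32.0, 26.2 and 84.5 in OR, 75.4, 158.2 and 46.4 in YSR and 101.8, 60.2 and 51.2 in YR. The lowest signals were those of OR arrays 1 and 2, the third OR array lay inside the OSR range, and all groups overlapped. Mean log2 signal was 6.36 ± 0.34 in OSR, 5.37 ± 0.90 in OR, 6.36 ± 0.89 in YSR and 6.09 ± 0.52 in YR (SD, n = 3 each). Of neighbours in that order of levels, OSR, YSR and YR lay closer together than the within-group SD of 0.71, and the gap of 0.72 between YR and OR was about as wide. The difference OSR minus OR was 0.99 (SE 0.58, adjusted p = 0.905 from limma) and YSR minus YR was 0.27 (SE 0.58). OSR minus OR was 1.51 without OR array 3, and the interaction of 0.72 (SE 0.82, adjusted p = 0.99) did not pass. Old minus young was -0.36 (SE 0.41, adjusted p = 0.837 from limma).

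Arg1, the cytosolic arginase that marks repair-associated macrophages in rodents, was the brightest of the 7 (chromosome 1, 22295093 to 22307720). Signals were 5979.7, 9267.5 and 6518.7 in OSR, against 4775.3, 3899.0 and 5301.2 in OR, and 7099.8, 5546.2 and 4851.1 in YSR, against 4665.4, 6312.1 and 5609.3 in YR. All 3 OSR arrays lay above all 3 OR arrays, whereas the YSR and YR arrays overlapped. In log2 units Arg1 averaged 12.80 ± 0.33 in OSR, 12.17 ± 0.23 in OR, 12.49 ± 0.28 in YSR and 12.42 ± 0.22 in YR (SD, n = 3 each). Among neighbouring levels the gap of 0.31 between OSR and YSR exceeded the within-group SD of 0.27, while YSR and YR, and YR and OR, did not differ beyond it. OSR exceeded OR by 0.62 (SE 0.20, 1.54-fold, adjusted p = 0.896 from limma), and the difference YSR minus YR was 0.07 (SE 0.20). The interaction, the difference in old rats less that in young rats, was 0.55 (SE 0.28, 95% interval -0.05 to 1.16, adjusted p = 0.99 from limma), so that a fixation difference of unlike size at the 2 ages was not shown. Averaged over age, semi-rigid minus rigid was 0.35 (SE 0.14, 95% interval 0.05 to 0.65, 1.27-fold, adjusted p = 0.845 from limma). Age itself left Arg1 at almost the same mean, 12.49 in old and 12.46 in young rats, a difference of 0.03 whose 95% interval ran from -0.27 to 0.33.

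Markers of monocytes and macrophages were not level across the same groups. The summed signal of 8 such genes ranged over 72112.8 to 93258.2 in OSR, 68556.5 to 96445 in OR, 82055.2 to 109719.2 in YSR and 86542.7 to 105226.8 in YR, and none of the 8 was at the floor in any array. For OSR minus OR, 7 of 8 were higher, 2 of them at an unadjusted p under 0.05 (against 5.26% of all probe sets), with a median of 0.26. For old minus young 7 of 8 were lower, 4 of them at that level (against 8.59%), with a median of -0.38. All 8 markers were bright, and with dim probe sets removed 971 of 15521 were counted for OSR minus OR and 1801 for old minus young. The direction of the OSR minus OR difference was thus the same for Arg1 and for most of the list. For old minus young it was not, since most of the list was lower whereas Arg1 was at 0.03 (SE 0.14). The part of the markers in the Arg1 values was not tested. Skeletal muscle markers spread more widely within these groups, with a mean log2 signal of 7.38 to 13.24 in OSR and 7.47 to 12.13 in OR. Their part in the Arg1 values was not tested either. The genes whose log2 signal followed Arg1 most closely over the 12 arrays, among 9562 genes, were Tgfbi, an extracellular matrix protein (Pearson r = 0.902), Slx9 (0.837) and Asb2 (0.829). These are descriptions over arrays that share groups and pools.

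Arg2 encodes the mitochondrial arginase (chromosome 6, 103669001 to 103694375). It was dim, with signals of 59.2, 100.9 and 32.6 in OSR, 87.1, 33.6 and 37.9 in OR, 66.7, 52.8 and 58.1 in YSR and 70.9, 99.4 and 8.2 in YR. The highest and second highest arrays belonged to OSR and YR, the lowest was also in YR, and every pair of groups overlapped. Mean log2 signal was 5.86 ± 0.82 in OSR, 5.59 ± 0.75 in OR, 5.88 ± 0.17 in YSR and 5.27 ± 1.95 in YR (SD, n = 3 each), and no neighbours in the order differed beyond the within-group SD of 1.13. Old minus young was 0.14 (SE 0.59), semi-rigid minus rigid 0.44 (SE 0.59) and the interaction -0.34 (SE 1.18), with adjusted p-values from limma of 0.96, 0.93 and 0.995. The 95% interval for age ran from -1.14 to 1.43, which is wide enough to hold a 2-fold difference in either direction.

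Odc1, ornithine decarboxylase, makes putrescine and is the rate-limiting step of polyamine synthesis (chromosome 6, 46058439 to 46065148). Its signals were 4054.2, 3695.2 and 3638.4 in OSR, 3422.3, 4451.8 and 3696.2 in OR, 3411.2, 3215.9 and 4104.4 in YSR and 3338.5, 4022.2 and 4479.4 in YR. All 12 arrays fell between 3215.9 and 4479.4, the narrowest range of the 7 genes on the log2 scale. The group means were 11.89 ± 0.08 in OSR, 11.90 ± 0.20 in OR, 11.80 ± 0.18 in YSR and 11.94 ± 0.21 in YR (SD, n = 3 each), with no gap between neighbours beyond the within-group SD of 0.18. Old minus young was 0.03 (95% interval -0.19 to 0.25, adjusted p = 0.951 from limma) and semi-rigid minus rigid -0.08 (95% interval -0.30 to 0.15, adjusted p = 0.928). The interaction was 0.12 (95% interval -0.32 to 0.57). For Odc1 the intervals for age and fixation therefore exclude differences of the size measured for Ass1 between ages. Gmnn, an inhibitor of DNA replication licensing (r = 0.883), Eif4h, a translation initiation factor (0.870), and Cyc1, a subunit of respiratory complex III (0.858), had the most similar patterns over the 12 arrays.

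Nos2 is the inducible nitric oxide synthase (chromosome 10, 64313335 to 64349221). Its signals were 39.5, 307.0 and 22.3 in OSR, 311.8, 239.0 and 123.8 in OR, 17.6, 186.1 and 176.9 in YSR and 99.1, 169.2 and 27.4 in YR. Arrays of the same group differed more than the groups did: 4 arrays, OSR 1 and 3, YSR 1 and YR 3, had signals of 17.6 to 39.5, and the other 8 had signals of 99.1 to 311.8, with every pair of groups overlapping. On the log2 scale this gave 6.01 ± 1.99 in OSR, 7.71 ± 0.69 in OR, 6.38 ± 1.94 in YSR and 6.27 ± 1.35 in YR (SD, n = 3 each), and no neighbours in the order differed beyond the within-group SD of 1.58. OSR minus OR was -1.70 (SE 1.07, adjusted p = 0.905 from limma), YSR minus YR 0.11 (SE 1.07) and the interaction -1.81 (SE 1.52, 95% interval -5.10 to 1.49, adjusted p = 0.99). Old minus young was 0.54 (SE 0.76) and semi-rigid minus rigid -0.79 (SE 0.76), with adjusted p-values from limma of 0.87 and 0.905. Without YSR array 1 and OR array 1, which had the highest Gapdh ratios, old minus young was -0.17 and semi-rigid minus rigid -0.09.

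A further probe set was annotated to both Nos2 and the related entry Nos2-ps1 and was therefore not used for the gene. It was dimmer, with signals of 45.7, 82.0 and 37.7 in OSR, 46.5, 34.8 and 2.7 in OR, 47.2, 69.3 and 43.7 in YSR and 32.1, 20.9 and 23.1 in YR. Its differences ran the other way, at 1.67 (SE 0.91) for OSR minus OR and 1.37 (SE 0.64, adjusted p = 0.845 from limma) for semi-rigid minus rigid. The value of 1.67 rested on the signal of 2.7 in OR array 3, without which OSR minus OR was 0.37 and semi-rigid minus rigid 0.72. The OSR minus OR difference of -1.70 at the single-symbol probe set likewise ran between -2.82 without OSR array 2 and -0.93 without OSR array 3. The 2 probe sets thus gave fixation differences of opposite sign, neither of which passed the test, and no direction for Nos2 was read from them.

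Nos3, the endothelial nitric oxide synthase, makes the nitric oxide that relaxes vessel walls (chromosome 4, 11686088 to 11706604). Signals were 353.8, 266.5 and 213.4 in OSR, 278.0, 675.2 and 277.8 in OR, 159.9, 266.3 and 146.5 in YSR and 130.2, 279.5 and 248.5 in YR. OR array 2 was the highest of the 12, the lowest 3 arrays were all from young rats, and old and young arrays overlapped around 213.4 to 279.5. Mean log2 signal was 8.09 ± 0.37 in OSR, 8.55 ± 0.74 in OR, 7.52 ± 0.47 in YSR and 7.70 ± 0.59 in YR (SD, n = 3 each). Both old groups stood above both young groups, but no neighbours in the order OR, OSR, YR and YSR differed beyond the within-group SD of 0.56. Averaged over fixation, the mean was 8.32 in old and 7.61 in young rats, a difference of 0.70 (SE 0.29, 95% interval 0.08 to 1.32, 1.63-fold, adjusted p = 0.511 from limma). The difference was 0.56 for OSR minus YSR (SE 0.40, adjusted p = 0.959) and 0.84 for OR minus YR (SE 0.40, adjusted p = 0.608 from limma), and the interaction was -0.28 (SE 0.57). All 3 OR arrays lay above all 3 YSR arrays, a difference of 1.02 (SE 0.40, adjusted p = 0.42 from limma) between groups that differ in both age and fixation. These values rested in part on OR array 2: without it OR minus YSR was 0.59, OR minus YR 0.42 and old minus young 0.49. Without YR array 1, OR minus YR was 0.50.

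Endothelial markers differed between the ages in the same direction. All 7 of them were higher in old rats, 4 at an unadjusted p under 0.05 (against 8.59% of all probe sets). The median difference was 0.48 against 0.02 over all probe sets. Their summed signal ranged over 4597.2 to 7942.2 in OSR, 6086.8 to 12084.3 in OR, 4271.8 to 5136.5 in YSR and 4408 to 5632.5 in YR, so that the OR range lay above both young ranges. The part of these markers in the Nos3 values was not tested. Among 9562 genes, the patterns closest to that of Nos3 over the 12 arrays were those of Erg, an ETS-family transcription factor of endothelial cells (r = 0.910), Ccdc88a, an actin-binding protein also called girdin (0.902), and Nrarp, a target and inhibitor of Notch signalling (0.898). They are given as a description over arrays that share groups, and OR array 2, in which Nos3 was highest, was also the array with the highest endothelial mean.

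Ass1, argininosuccinate synthase, joins citrulline to aspartate and so starts the return of citrulline to arginine (chromosome 3, 35144765 to 35194632). Signals were 534.5, 441.2 and 446.1 in OSR, 202.6, 309.9 and 515.4 in OR, 128.4, 362.3 and 269.4 in YSR and 188.4, 253.9 and 142.1 in YR. The OSR arrays were close together and above every young array, the OR arrays spread over most of the range, and YR had the lowest mean. Mean log2 signal was 8.88 ± 0.16 in OSR, 8.32 ± 0.67 in OR, 7.86 ± 0.77 in YSR and 7.57 ± 0.42 in YR (SD, n = 3 each). Of neighbours in that order, OSR and OR lay 0.57 apart, just beyond the within-group SD of 0.56, and the other neighbours did not differ beyond it.

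Ass1 had the largest age difference of the 7 genes. Old minus young was 0.89 (SE 0.28, 95% interval 0.28 to 1.50, 1.85-fold, adjusted p = 0.371 from limma), with means of 8.60 in old and 7.71 in young rats. It was 1.02 for OSR minus YSR (SE 0.40, adjusted p = 0.959), 0.75 for OR minus YR (SE 0.40, adjusted p = 0.644) and 1.32 for OSR minus YR (SE 0.40, adjusted p = 0.969 from limma), comparisons that partly share arrays. Semi-rigid minus rigid was 0.43 (SE 0.28, adjusted p = 0.877 from limma) and the interaction 0.27 (SE 0.56, adjusted p = 0.99). Its low signals included the arrays with a high Gapdh ratio: YSR array 1 (128.4) was the lowest of all 12 and OR array 1 (202.6) the lowest of the old arrays, and the YR arrays, next in that ratio, had 188.4, 253.9 and 142.1. Without YSR array 1 and OR array 1, old minus young was 0.84 (adjusted p = 0.293 from limma), OSR minus YSR was 0.60, OR minus YR was 1.08 and the interaction was -0.48, so that the age difference stayed of like size while its split between fixations turned round. The part of RNA quality in the YR values was not tested. Markers of other cells also differed between the ages: 4 of 6 neutrophil markers were higher in old rats, all 4 at an unadjusted p under 0.05 (median over the list 1.56), and 6 of 6 erythroid markers were higher, 2 at that level (median 0.82), while 7 of 8 skeletal muscle markers were lower, 0 at that level. Of all probe sets, 8.59% were counted for age at that level. The summed neutrophil signal ranged over 22444.6 to 63579 in OSR, 35152 to 86613.5 in OR, 8856.6 to 16847.4 in YSR and 10717.4 to 49028.1 in YR. The summed erythroid signal ranged over 60279 to 74502.3 in OSR, 75416.1 to 102973.7 in OR, 49027.6 to 65221.4 in YSR and 54895.6 to 93455.4 in YR. The part of these cells in the Ass1 values was not tested. The closest patterns over the 12 arrays were those of Scand1 (r = 0.884), Dusp6, a phosphatase that switches off ERK (0.880), and Actn4, an actin crosslinker (0.873).

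**Figure D2:**
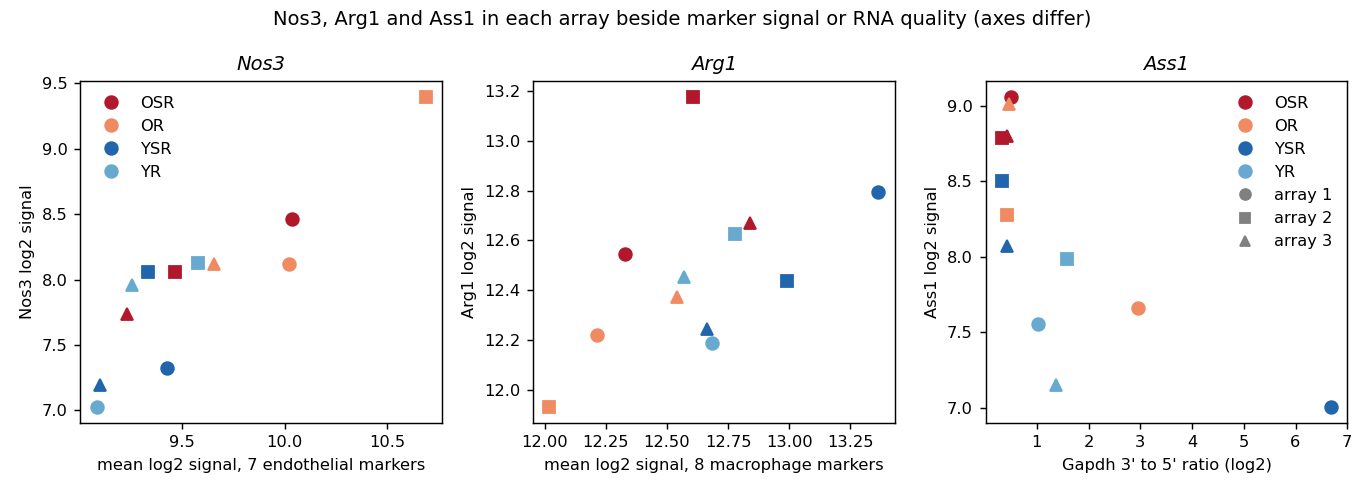
Log2 signal of Nos3 against the mean log2 signal of 7 endothelial markers, of Arg1 against that of 8 macrophage markers, and of Ass1 against the log2 ratio of 3' to 5' Gapdh signal, for each of the 12 arrays (colour, group; shape, array number). OR array 2 was highest on both axes for Nos3, the 3 OSR arrays of Arg1 lay above the OR arrays, and YSR array 1 had the highest Gapdh ratio and the lowest Ass1.

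Nos3 and Ass1 were the genes counted for age, and their promoter windows are shown. An ETS-family sequence was searched because Erg, an ETS-family factor, had the pattern most like that of Nos3. This reason does not cover Ass1, whose closest patterns were those of Scand1, Dusp6 and Actn4. The windows hold 250 bases before and 50 after the start that the RefSeq table uses (GRCr8), which lies inside the annotated interval of each gene. The Nos3 window reaches past the upstream end of that interval. The Ass1 window lies wholly inside it, downstream of its first base at 35144765, and so is not the upstream end of the annotated gene. AGGAAG, a core sequence of ETS-family sites searched on both strands (CTTCCT on the other), is in capitals.
Nos3, chr4:11706532-11706831, minus strand: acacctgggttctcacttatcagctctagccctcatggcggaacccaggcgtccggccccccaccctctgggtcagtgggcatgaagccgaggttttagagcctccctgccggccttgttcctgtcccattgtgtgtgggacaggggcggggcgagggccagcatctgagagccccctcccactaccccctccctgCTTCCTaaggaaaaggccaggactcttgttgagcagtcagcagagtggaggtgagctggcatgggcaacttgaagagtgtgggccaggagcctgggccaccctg
Ass1, chr3:35149480-35149779, plus strand: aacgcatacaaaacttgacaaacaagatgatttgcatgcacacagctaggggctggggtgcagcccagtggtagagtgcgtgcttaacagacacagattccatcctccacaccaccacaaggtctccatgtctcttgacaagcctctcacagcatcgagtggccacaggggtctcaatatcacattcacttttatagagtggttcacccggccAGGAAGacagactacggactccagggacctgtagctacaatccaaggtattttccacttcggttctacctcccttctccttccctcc
Each window held 1 match, and so did at least 1 place in 34.5% of the 33469 rat promoter windows in that table. The motif was chosen after the values had been seen, and a match describes the letters only.

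**Figure D3:**
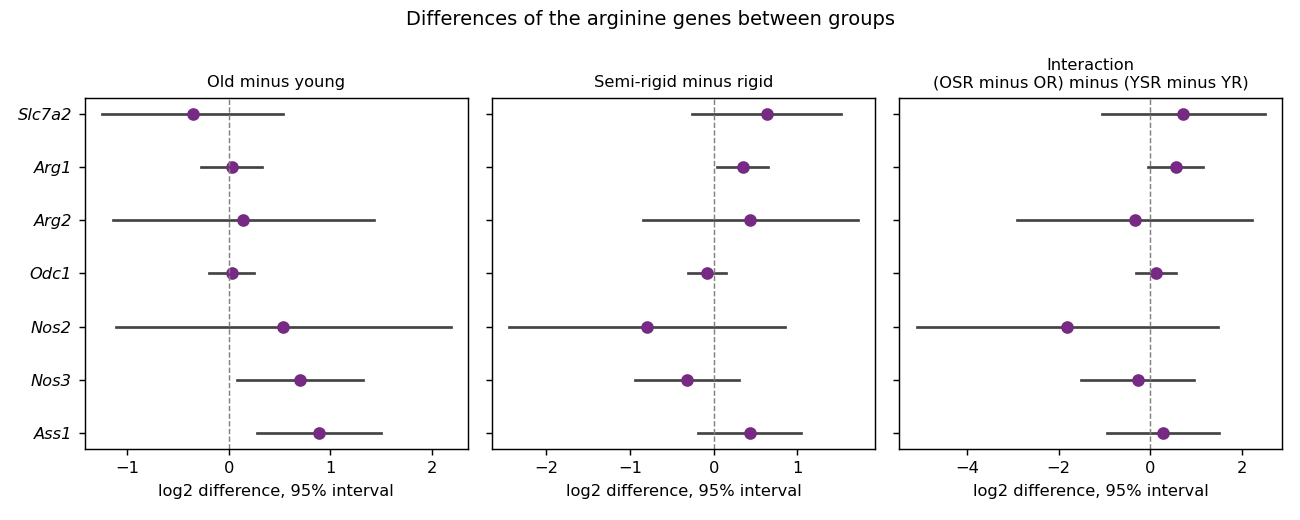
Log2 difference of each of the 7 genes with its 95% interval (limma) for old minus young, semi-rigid minus rigid and the interaction; the x scales differ between panels. The intervals of Nos3 and Ass1 for age and of Arg1 for fixation lie above 0 before adjustment, those of Odc1 are narrow around 0, and those of Nos2 and Arg2 are the widest.

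The other genes of the pathway were 64 listed by role, of which 58 had a probe set of their own and 44 lay at or above the median signal. None of the 58 passed the adjusted threshold in any comparison with limma. At an unadjusted p under 0.05, 14 (24.1%) were counted for old minus young, 8 higher and 6 lower in old rats, against 8.59% of all probe sets. The shares were 6.9% for semi-rigid minus rigid (4 genes) and 5.17% for the interaction (3 genes), close to the 5.73% and 3.8% of all probe sets. Between the pairs of 1 factor the count was highest for OR minus YR, with 9 genes higher and 7 lower (27.6%, against 8.34%). Bright genes were a larger part of the 58 than of all probe sets, which makes these backgrounds low. With dim probe sets removed, 1801 of 15521 were counted for old minus young and 1600 for OR minus YR. The median difference over the 58 was 0.07 for age, so that the genes counted did not share a direction.

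Of the other transport and recycling genes 0 of 10 were counted for age, at an adjusted or an unadjusted p under 0.05. Slc7a1, the transporter present in most cells, was at 0.20 for old minus young (SE 0.14, adjusted p = 0.728 from limma) and Slc7a6, a partner of the heavy chain Slc3a2 in arginine exchange, at -0.15 (SE 0.13). Asl, which splits argininosuccinate to release arginine and so follows Ass1, was at -0.09 (SE 0.10, adjusted p = 0.823 from limma), unlike Ass1 itself. Slc25a15, which carries ornithine into mitochondria, was at 0.19 (SE 0.14). Median differences over these lists were -0.03 for the 5 transport genes and 0.18 for the 5 genes of the citrulline and urea cycle.

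Downstream of nitric oxide the receptor subunits had higher means in old rats without passing the adjusted threshold. Gucy1a1, a subunit of soluble guanylate cyclase, had signals of 651.5, 304.5 and 262.3 in OSR, 697.4, 597.9 and 419.7 in OR, 252.5, 135.5 and 205.6 in YSR and 207.3, 371.2 and 107.0 in YR. Of the old arrays 4 exceeded every young array, and the others overlapped with YR array 2. Old minus young was 1.22 for Gucy1a1 (SE 0.32, adjusted p = 0.258 from limma) and 1.01 for Gucy1b1, the other subunit (SE 0.32, adjusted p = 0.371). The third gene of this list, the cGMP phosphodiesterase Pde5a, was dim and at 0.96 (SE 0.74, adjusted p = 0.752 from limma), giving a median of 1.01. For Pde5a, OSR minus YSR was -0.51 (SE 1.05). The mean log2 signal of this list was highest in OSR array 1 (8.48), OR array 2 (8.39) and OR array 1 (8.32), which were also the 3 arrays of highest endothelial mean (10.03, 10.69 and 10.02 in the same order), and 7 of 7 endothelial markers were higher in old rats. The part of these markers in the receptor values was not tested, and smooth muscle cells, which also express the receptor, had no marker list here. Among the regulators of the synthases, Ddah1, which breaks down an endogenous synthase inhibitor, was at 0.45 (SE 0.14, adjusted p = 0.371 from limma). Gchfr, the feedback regulator of the enzyme that makes the cofactor tetrahydrobiopterin, was at -0.39 (SE 0.18, adjusted p = 0.572), and the list of 11 had 5 genes higher, 6 lower and a median of -0.07.

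Between fixations in old rats, 10 of the 58 genes did not overlap (10.8% of all probe sets), Gchfr among them. Its signals were 345.3, 390.8 and 426.7 in OSR, against 229.0, 207.7 and 230.8 in OR, without overlap, and 435.7, 515.5 and 267.9 in YSR, against 473.7, 359.4 and 308.5 in YR. OSR minus OR was 0.80 (adjusted p = 0.896 from limma) and the interaction 0.73 (SE 0.35, adjusted p = 0.99). Gatm, which takes arginine into creatine synthesis, was at 0.35 for OSR minus OR (adjusted p = 0.901), 0.42 for the interaction (SE 0.19) and -0.34 for old minus young (SE 0.09, adjusted p = 0.296 from limma), whereas Gamt, the next step, was at -0.15 (SE 0.11) for age.

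The polyamine genes beside Odc1 had a median age difference of 0.09, with 7 of 11 higher. Paox, which oxidises acetylated polyamines, was at -0.37 (SE 0.10, adjusted p = 0.290 from limma) and Sat1, which acetylates them for breakdown or export, at -0.22 (SE 0.12). Azin2, an antizyme inhibitor that spares ornithine decarboxylase, was dim and was named after its values had been seen, because it was the only 1 of the 58 whose old arrays all lay above the young arrays (background 0.399%). Its signals were 132.2, 172.0 and 96.2 in OSR, 102.6, 188.5 and 144.8 in OR, 44.1, 19.7 and 84.9 in YSR and 58.1, 18.6 and 14.7 in YR, and the difference of 2.06 (SE 0.45, adjusted p = 0.207 from limma) did not pass. On the way from ornithine to glutamate and proline, Oat was at 0.02 (SE 0.11) and Aldh18a1 at 0.12 (SE 0.09).

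Classical and alternative activation are the macrophage states that Nos2 and Arg1 mark in rodents. Of the 9 classical genes measured, 6 were higher and 3 lower in old rats with a median of 0.11, and of the 9 alternative genes 4 were higher and 5 lower with a median of -0.0027. Ptgs2, the inducible cyclooxygenase, was at 1.35 (SE 0.33, adjusted p = 0.215 from limma) and the cytokine Il6 at 0.67 (SE 0.17, adjusted p = 0.257). Of the neutrophil markers, S100a8, S100a9, Mmp8 and Camp were also higher in old rats, whereas Cxcr2 (-0.21) and Csf3r (-0.13) were not. The part of neutrophils in the Ptgs2 and Il6 values was not tested. The lectin receptors Mrc1 and Clec10a were at -0.54 (SE 0.14, adjusted p = 0.263) and -0.63 (SE 0.22, adjusted p = 0.409 from limma). Like Arg1, Mrc1 did not overlap between the old groups, with signals of 6469.9, 7955.7 and 9531.5 in OSR, against 6114.6, 3520.4 and 5299.7 in OR, and 8863.3, 7746.5 and 9200.9 in YSR, against 8237.9, 10595.3 and 9621.3 in YR. OSR minus OR was 0.70 (adjusted p = 0.872 from limma) and the interaction 0.84 (SE 0.28, adjusted p = 0.99). Il4r and Pparg of the alternative list and Cxcl9 of the classical list did not overlap between the old groups either. In either direction, 10.8% of all probe sets did not overlap there. The summed signal of the alternative genes, most of it from Mrc1 and Tgm2, was 14297.6 to 18603.2 in OSR, 12327.5 to 13821.2 in OR, 16641.9 to 18448.4 in YSR and 16076.8 to 19109.9 in YR. Every OR array thus lay below all others in this sum. The mean log2 signal of the same 9 genes overlapped between all groups, at 9.04 to 9.29 in OSR, 9.02 to 9.23 in OR, 8.97 to 9.37 in YSR and 9.04 to 9.43 in YR. For OR minus YR, 16 of the 58 genes did not overlap (13.8% of all probe sets). Counted in either direction, they were Mrc1, Cd163, Il4r, Tgm2 and Pparg in the alternative list. In the classical list they were Il6, Tnf and Cxcl9. None of them passed the adjusted threshold. Other interaction values were 0.78 for Cd163, 0.98 for Ptgs2 and -0.83 for the chemokine Cxcl10, each at an adjusted p of 0.99 from limma.

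**Figure D4:**
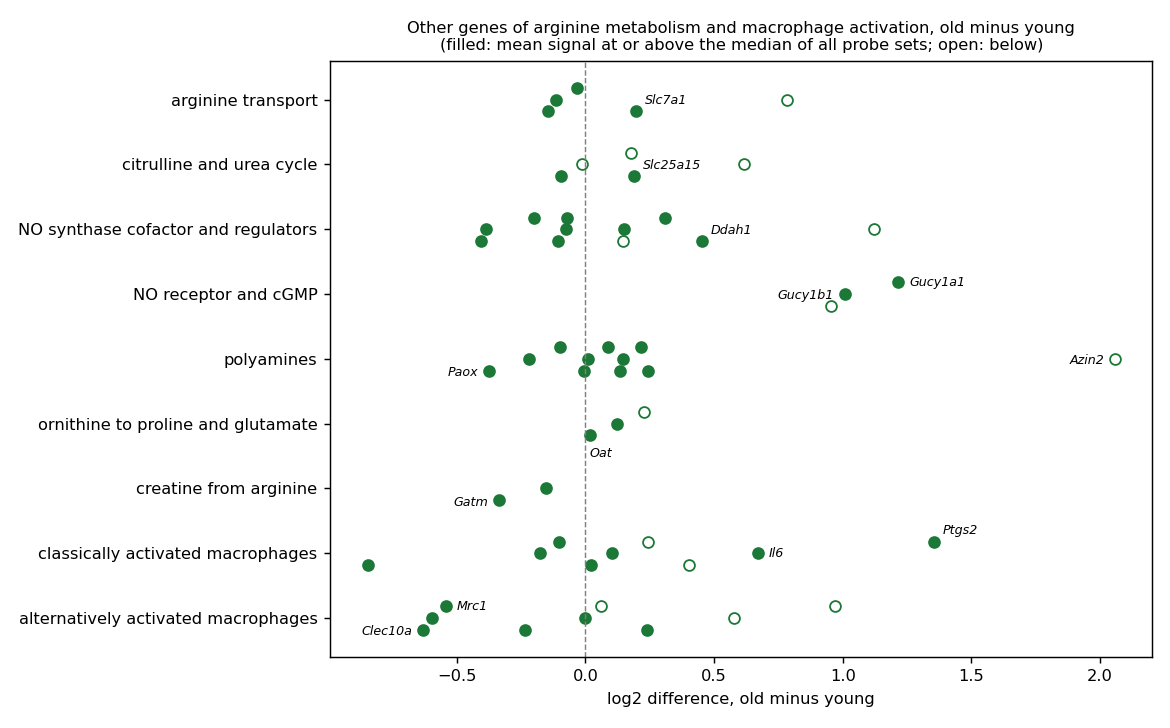
Log2 difference old minus young (x axis) of the 58 other pathway genes measured, by list (y axis, with points set apart vertically for legibility); filled points lie at or above the median signal, open points below. The 3 genes of the nitric oxide receptor and cGMP list all lie near 1, the activation lists straddle 0, and Azin2 is the point farthest to the right.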

How the data were processed

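Pooled hematoma RNA was hybridised to 12 Affymetrix arrays of 1 colour. The deposited values are signal intensities of 31099 probe sets, not logged and scaled per array by the authors, whose processing notes name GCOS 1.2. The paper's methods name PLIER for its summaries, which were left aside.

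A floor of 1 was applied before log2. Removal of 57 control probe sets gave 31042 for testing. Groups were compared with limma 3.58.1 in R 4.3.3 (lmFit on 4 group means over all 12 arrays, eBayes with its intensity trend), with adjustment by Benjamini and Hochberg over all 31042 probe sets. Differences are OSR minus YSR, OR minus YR, OSR minus OR, YSR minus YR, OSR minus YR, OR minus YSR, old minus young, semi-rigid minus rigid, and the interaction, OSR minus OR less YSR minus YR. Python 3.11.15 with pandas 2.3.3 and matplotlib 3.10.9 drew the plots. The fit was tested on simulated data.

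The platform annotation gave 1 symbol for 20832 probe sets, several for 436 and no symbol for 9831. Named were all 7 members, from each pathway list the 2 genes of smallest unadjusted p for age and for the interaction among those at or above the median of mean log2 signal (7.16), and for each member above that median the 3 genes of highest correlation. Members, lists and tests were chosen with earlier results of these data known. Coordinates are those of GRCr8.

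Alternatives were quantile normalization, a pseudocount of 16, removal of dim probe sets, no intensity trend, only the arrays compared, an unmoderated linear model (1-way for pairs, 2-way for age, fixation and interaction, after the analysis of variance of the study), the replicate number as a block, leaving out each array, and leaving out the 2 arrays of highest Gapdh ratio. Same-numbered arrays of different groups had a median correlation of deviations of 0.019 over 18 pairs (-0.412 to 0.405). For arrays of unlike number it was 0.020 over 36 pairs (-0.416 to 0.570). These values showed no pairing by number, but they cannot exclude a pairing or a shared batch.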

Additional observations from a re-analysis of the deposited data

How the results depend on the processing

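Of the 7 genes 0 were called in any of the 9 comparisons under each of the 20 alternatives, and the lowest adjusted p of a printed value was 0.137 from limma, with the 2 arrays of highest Gapdh ratio left out, for Ass1 in OSR minus YR. Of 647 values of single members under an alternative 616 kept their sign and 31, in 11 results, had the other sign. The cause was not tested. With the replicate number as a block, old minus young was 0.89 for Ass1 (adjusted p = 0.422 from limma) and 0.70 for Nos3 (adjusted p = 0.478), and the block changed no call. Removal of dim probe sets left Arg2, Nos2 and Slc7a2 without a value, and a mean over several probe sets could not be formed, since each member had 1.

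Without the 2 arrays of highest Gapdh ratio (YSR array 1 and OR array 1), signs turned for Arg1 in YSR minus YR (-0.081), for old minus young of Arg2 (-0.025), Nos2 (-0.17) and Oat (-0.045), and for the interaction of Arg2 (0.18), Ass1 (-0.48), Slc25a15 (0.00403), Asl (0.057) and Gamt (0.020). When single arrays were left out, YSR minus YR lay between -0.081 and 0.19 for Arg1, -0.64 and 1.23 for Nos2, and -0.20 and 0.68 for Slc7a2. Old minus young then lay between -0.066 and 0.10 for Arg1, -0.41 and 0.49 for Arg2, -0.024 and 0.92 for Nos2, -0.028 and 0.082 for Odc1, and -0.052 and 0.11 for Oat, and semi-rigid minus rigid between -0.12 and 0.78 for Arg2. The interaction lay between -1.02 and 0.78 for Arg2, -0.15 and 0.62 for Ass1, -0.49 and 0.15 for Nos3, -0.14 and 0.11 for Aldh18a1, -0.19 and 0.031 for Asl, -0.24 and 0.00479 for Gamt, -0.24 and 0.084 for Oat, and -0.36 and 0.020 for Slc3a2. The age differences of Ass1 (0.67 to 1.05) and Nos3 (0.49 to 0.84), and OSR minus OR of Arg1 (0.43 to 0.75), kept their sign in every such fit. Of 360 list medians for age or the interaction under an alternative, 12 moved by at least the within-group SD of the list's mean log2 signal. Dim signals limit Arg2, Nos2 and Slc7a2, and 3 arrays per group limit every comparison.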
